A study of Mus musculus with 10 samples.

Results

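Almost fully methylated CpG cytosines were taken as the autosomal cytosines whose methylation level was 95% or more, the level being the methylated reads summed over 10 libraries divided by the coverage summed over them. There were 3779 of them among 2346489 autosomal cytosines, or 0.161%, and the whole table held 2391795 cytosines. The libraries came from whole mouse embryos at embryonic day 7.5, in the study's experiment 2, with 5 embryos labelled control and 5 labelled arsenic. Methylation was read by reduced representation bisulfite sequencing: DNA is cut with a restriction enzyme to favour fragments rich in CpG, and bisulfite treatment makes unmethylated cytosines read as thymine. Arsenic dose and timing, mouse strain and embryo sex were not stated in the labels. The 10 libraries of the table carry only numbers, so none could be placed in a group, no comparison of control with arsenic was made, and values are given over the libraries as lowest, median and highest. Since the levels themselves chose the cytosines, all values below are descriptions without a test.

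In mammals a CpG reads the same on both strands, and the maintenance methyltransferase Dnmt1, guided by Uhrf1, copies a methylated strand onto the newly made one. Dnmt3a and Dnmt3b set methylation on unmodified DNA, and Tet enzymes oxidise it. After implantation the mouse embryo gains methylation over most of its genome, while CpG islands at gene starts mostly stay unmethylated and the bodies of transcribed genes are often methylated.

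Promoter windows were mostly unmethylated, with a mean level of 5.35% and 599 of 156431 cytosines at 80% or more. Per 1000 cytosines at 80% or more, 5.01 in these windows were at 95% or more, against 16.0 over the autosomes. Only 3 of 11220 measured promoter windows held an almost fully methylated cytosine. A window ran from 250 bases before to 50 bases after a gene start, with sequences from RefSeq on build GRCm38.p6. The 3 are shown 5′ to 3′ on the gene's strand with the CpG of that cytosine in capitals, since they are the exceptions at gene starts. They belong to 1700094J05Rik (chr10:76388765-76389064, plus strand), Gm52102 (chr14:25661218-25661517, minus strand) and Vwa7 (chr17:35016329-35016628, plus strand).
1700094J05Rik: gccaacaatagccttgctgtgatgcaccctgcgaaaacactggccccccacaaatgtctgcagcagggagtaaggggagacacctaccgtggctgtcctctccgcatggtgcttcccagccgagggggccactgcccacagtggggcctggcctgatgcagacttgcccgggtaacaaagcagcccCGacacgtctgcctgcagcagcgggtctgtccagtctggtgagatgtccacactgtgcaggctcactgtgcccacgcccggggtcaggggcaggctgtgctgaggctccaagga
Gm52102: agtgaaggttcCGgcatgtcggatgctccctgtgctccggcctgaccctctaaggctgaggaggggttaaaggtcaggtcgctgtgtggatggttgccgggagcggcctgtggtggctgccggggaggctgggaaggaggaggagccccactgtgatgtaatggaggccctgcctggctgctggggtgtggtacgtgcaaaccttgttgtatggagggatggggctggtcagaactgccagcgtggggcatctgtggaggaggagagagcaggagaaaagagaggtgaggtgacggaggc
Vwa7: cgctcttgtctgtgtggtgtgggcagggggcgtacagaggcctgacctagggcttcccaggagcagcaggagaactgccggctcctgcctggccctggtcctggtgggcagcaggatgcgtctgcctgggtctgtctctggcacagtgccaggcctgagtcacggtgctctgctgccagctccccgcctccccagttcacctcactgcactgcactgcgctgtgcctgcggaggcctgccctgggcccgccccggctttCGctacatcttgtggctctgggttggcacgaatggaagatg

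The cytosine of 1700094J05Rik lay 63 bases before the start, had a level of 97.8%, and ranged from 90.9% over a median of 100% to 100% between libraries. That of Gm52102, the only cytosine measured in its window, had 95.8%, with 89.7%, 96.7% and 100% as the lowest, median and highest library. That of Vwa7 had 96.2%, with 87.0%, 98.3% and 100%, and the cytosine on its opposite strand had 86.7%. The windows as a whole were lower: those of 1700094J05Rik and Vwa7 averaged 87.6% and 81.9% over 5 and 19 cytosines.

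For contrast, the starts of 2 genes rich in almost fully methylated cytosines are shown with every measured CpG in capitals. They are AI506816 (chr5:23712618-23712917, minus strand) and Gng12 (chr6:66896147-66896446, plus strand), the genes with the most such cytosines among those with at least 10 cytosines measured in a promoter window. That condition was set after the values were seen. Gcn1, with 22 such cytosines, was drawn first and replaced because no cytosine at its start was low. The low level of the starts shown was thus part of the choice.
AI506816: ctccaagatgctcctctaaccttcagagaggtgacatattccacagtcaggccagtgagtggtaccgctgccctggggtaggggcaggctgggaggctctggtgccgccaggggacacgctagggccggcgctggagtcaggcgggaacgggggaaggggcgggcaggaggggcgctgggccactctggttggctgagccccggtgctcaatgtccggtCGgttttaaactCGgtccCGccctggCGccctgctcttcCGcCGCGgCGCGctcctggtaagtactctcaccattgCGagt
Gng12: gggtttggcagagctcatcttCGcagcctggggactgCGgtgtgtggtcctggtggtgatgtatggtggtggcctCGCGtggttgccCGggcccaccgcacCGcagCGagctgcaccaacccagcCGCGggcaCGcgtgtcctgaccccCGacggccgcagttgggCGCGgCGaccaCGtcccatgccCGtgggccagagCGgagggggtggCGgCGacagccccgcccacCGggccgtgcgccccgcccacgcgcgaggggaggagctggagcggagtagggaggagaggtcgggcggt

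The 13 cytosines measured at the start of AI506816, a long noncoding RNA gene, averaged 2.78%, and its libraries ran from 0.220% over 2.46% to 9.98%. The 24 at the start of Gng12, which encodes a gamma subunit of heterotrimeric G proteins, averaged 2.81%, with 1.23%, 2.81% and 3.92%. The genes held 65 and 17 almost fully methylated cytosines. These starts are examples picked after their values were seen and do not stand for all genes rich in such cytosines. Within 1000 bp of their starts, Gm42226 averaged 94.6%, LOC108167320 94.99% and Gm36816 90.5%. The starts of Gm42226 and Gm36816 lie inside AI506816 and Gng12, so their cytosines are also counted in those genes.

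**Figure D1:**
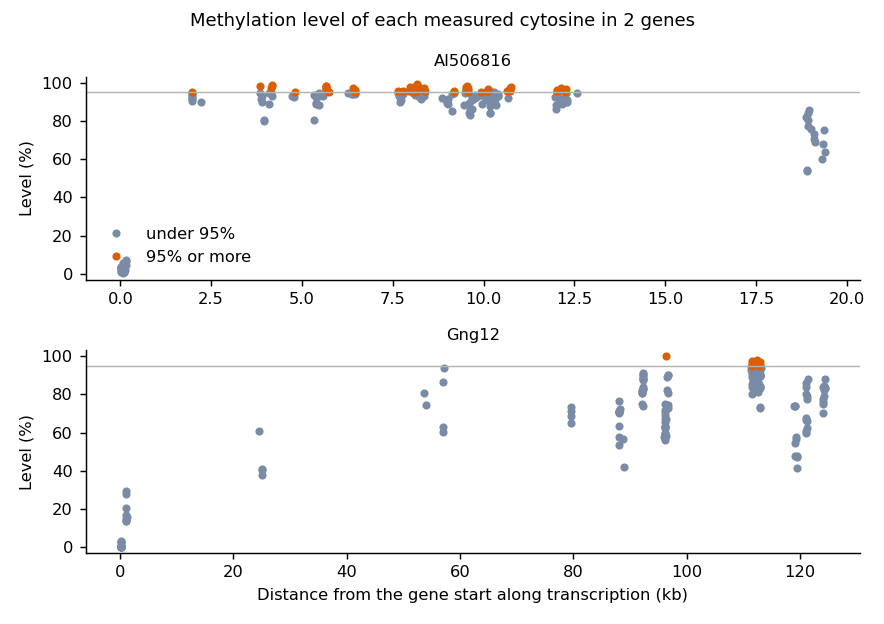
Methylation level over the 10 libraries (vertical axis, %) of each measured cytosine in AI506816 and Gng12 against its distance from the gene start along transcription (horizontal axis, kb); orange points are at 95% or more and the grey line marks 95%. The almost fully methylated cytosines of AI506816 lie 1.97 to 12.3 kb from the start and those of Gng12 at 96.5 to 113 kb, while the cytosines under 20% lie within 0.163 and 1.30 kb of the start.

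The number of cytosines fell steeply towards the top of the scale. There were 232398 at 80 to under 95%, or 99.04 per 1000 autosomal cytosines, against 1.61 per 1000 at 95% or more. Counted in steps of 0.5%, the number fell from 1172 in the first step above 95% to 63 in the step from 99%, and then rose to 94 in the last step. The last step included 72 cytosines without any unmethylated read. Just inside the threshold, 307 cytosines lay within 0.1 percentage points of it, and 259 lay as close below it.

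**Figure D2:**
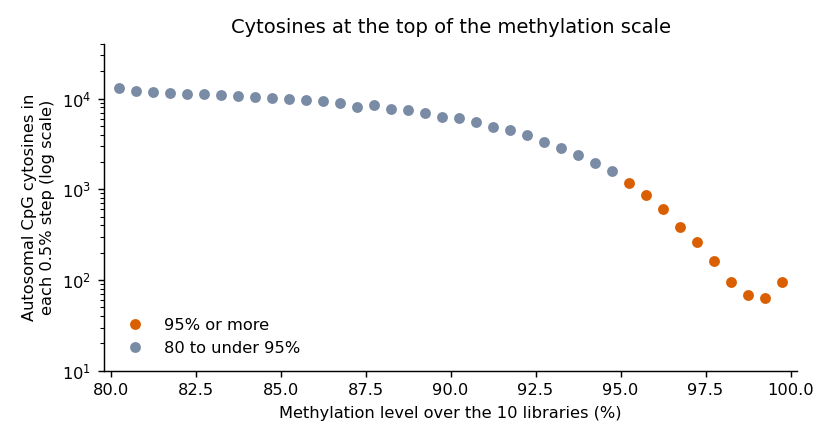
Number of autosomal CpG cytosines (vertical axis, log scale) in each 0.5% step of the methylation level over the 10 libraries (horizontal axis), with those at 95% or more in orange. The number falls to 63 at 99 to 99.5% and is 94 in the last step.

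Coverage set how well a level this high could be known. The summed coverage of the almost fully methylated cytosines ran from 116 over a median of 322 to 1636 reads, against a median of 374 at 80 to under 95%. Their median Wilson 95% interval ran from 93.4% to 97.6%, and 570 of the 3779 had a lower bound at 95% or more. These intervals cover counting error only and take every read as independent, and how duplicate reads were treated was not stated. In single libraries the mean level over the 3779 was 95.8%, 96.2% and 96.5% as lowest, median and highest. When the cytosines were instead chosen from 9 libraries, 3950 to 4269 qualified, and their mean level in the library left out was 93.4%, 94.0% and 94.5%. The label almost fully methylated thus describes the summed reads, and in a library that did not take part in the choice the mean stood below 95%.

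Single cytosines varied more between libraries than their average did. Of the 3779, 149 (3.94%) were at 95% or more in all 10 libraries, 1462 (38.7%) at 90% or more and 3607 (95.4%) at 80% or more. The lowest library of a cytosine had a median level of 88.9%, and the median range between libraries was 11.1 points. The lowest value of all was 54.5%, at chr14:106454593, from 6 methylated of 11 reads in 1 library, and the next-lowest library there had 91.3%.

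The opposite strand of the same CpG was measured for 2140 of the 3779 (56.6%) and had a median level of 93.1%. Of these partners, 536 (25.05%) were themselves at 95% or more. For cytosines at 80 to under 95% the partners had a median of 84.6%, and 1.05% of them were at 95% or more. Over all autosomal cytosines that share of partners was 0.143%. Around the almost fully methylated cytosines, those under 95% in the same 1 kb tile, averaged per tile, had a median level of 85.1%. All cytosines at 95% or more were left out of this average, which keeps it below 95%. In 3 tiles the cytosines under 95% averaged under 20%. These tiles lay in Txnrd2 (mitochondrial thioredoxin reductase), in Prpf19 (a splicing factor) and outside genes on chromosome 6. They held 9, 2 and 4 measured cytosines. In Prpf19 the only other cytosine was the opposite strand of the same CpG, at 9.29%.

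The cytosines at 99% or more stood apart from the rest. Those at 95 to under 99% (3622) had partners with a median of 93.2% and quartiles of 90.9% and 95.05%, and 19.1% of the partners were under 90%. Those at 99% or more (157) had partners with a median of 80.1% and quartiles of 68.5% and 89.7%, and 76.2% were under 90%. The cytosines under 95% in their tiles had medians of 85.3% and 75.1%. In the classes of 1% between 95 and 99% the median of the partner stayed between 93.0% and 93.9%, so the drop came at 99%.

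Read counts moved with this difference. The 39 cytosines at exactly 100% with a measured partner had a median of 207 methylated reads against 216 in the partner, and 0 unmethylated reads against 49. Their median coverage was 207 against 299, and it was below that of the partner in 34 of 39. Against the nearest cytosine of the same strand within 50 bp, coverage was 212.5 against 277, and lower in 41 of 50. The part of this lower coverage in the high levels was not tested.

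**Figure D3:**
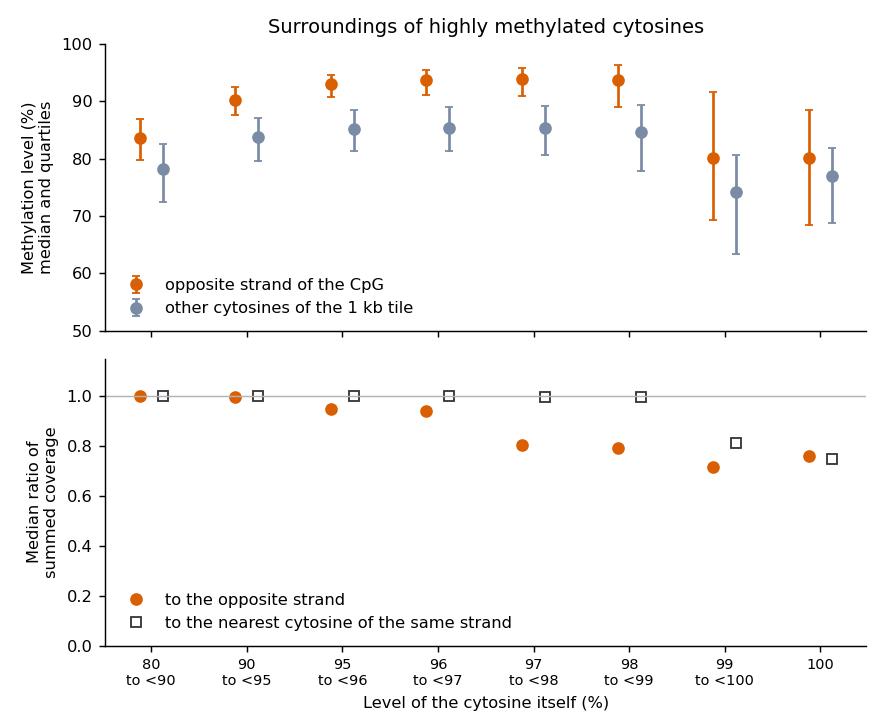
Top, median and quartiles of the methylation level (%) on the opposite strand (orange) and of the other cytosines in the 1 kb tile (blue) by the level of the cytosine itself (horizontal axis, %); bottom, the median ratio of summed coverage to the opposite strand (circles) and to the nearest cytosine of the same strand (squares). The opposite strand has a median of 93.75% at 98 to under 99% and 80.1% at 99 to under 100%, and the ratio to the nearest cytosine goes from 0.996 to 0.811.

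At 21 CpGs, from 2140 cytosines with a measured partner, the opposite strand was under 50%. Among cytosines at 80 to under 95% this held for 1690 of 139888, a share no smaller. At 13 of the 21 CpGs the opposite strand was between 2.80% and 14.6%. At chr16:20982666, outside genes, the plus strand had 96.9% and the minus strand 2.80%, with 833 and 214 reads. In E2f7, a repressor of the E2F family of cell-cycle factors, the strands had 97.996% and 6.44%, with 499 and 590 reads. In Ttn, the gene of the muscle protein titin, they had 96.3% and 9.51%, with 518 and 862 reads. Others lay in Kyat3, Uso1, Afap1, Lmnb2, Polr1a, Prpf19, Polr1e, Spen and Twf1. These CpGs were picked for their difference, and its cause was not tested.

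Density differed between chromosomes. Chromosome 15 had the highest, with 252 cytosines or 2.42 per 1000 (Wilson 95% interval 2.14 to 2.74), which was 1.503 times the autosomal value. Chromosome 5 followed with 378 or 2.17 per 1000 (1.964 to 2.40), and chromosome 11 had the lowest with 204 or 1.17 per 1000 (1.02 to 1.34). The intervals of chromosomes 15 and 5 overlapped, while neither overlapped that of chromosome 11. The intervals are too narrow, because neighbouring cytosines share reads. These chromosomes were also picked from the ends of the ranking, so whether their intervals overlap is no test. Chromosome 11 also had the fewest cytosines at 80 to under 95%, with 84.6 per 1000, against 104 and 110 on chromosomes 15 and 5. Per 1000 cytosines at 80% or more, chromosomes 15, 5 and 11 had 22.8, 19.4 and 13.6 at 95% or more. By that measure chromosome 9 was lowest with 12.8, against 16.0 over the autosomes.

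A few dense places carried part of the order per 1000 measured cytosines. Without tiles that held 5 or more, chromosomes 5 and 15 both had 1.66 per 1000, chromosome 10 had 1.59 and chromosome 11 had 0.882. The gene Plec alone held 52 of the 252 on chromosome 15, and AI506816 held 65 of the 378 on chromosome 5. The chromosomes were also ranked in each library by that library's own cytosines at 95% or more. Single libraries had 27037 to 47484 of these on the autosomes, far more than the almost fully methylated cytosines. The ranking thus describes a different, larger set and cannot check the order given above. In it chromosome 5 came first in 9 libraries and chromosome 10 in 1, and chromosome 11 came last in 8 and chromosome 2 in 2. Chromosome 15 came first in 0 of 10.

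**Figure D4:**
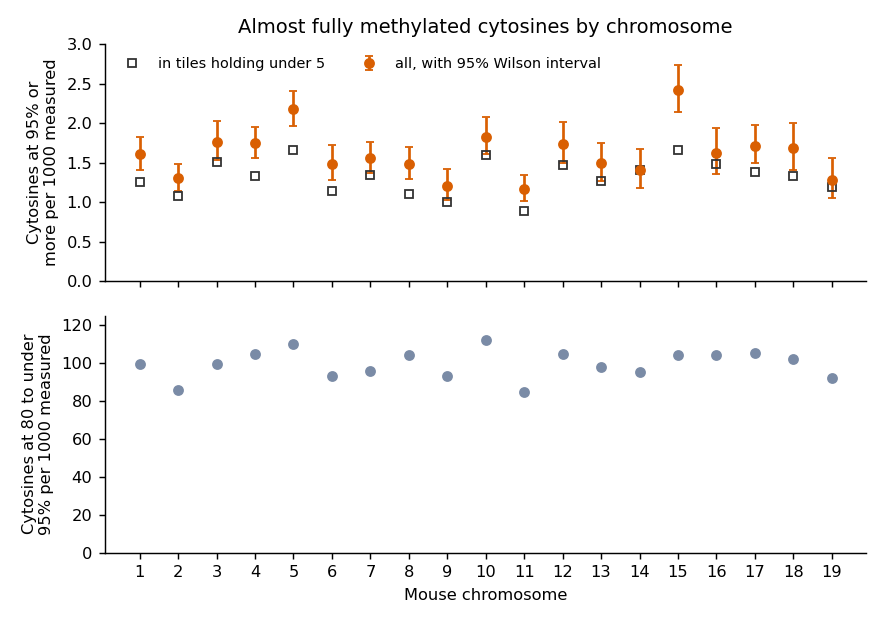
Top, almost fully methylated cytosines per 1000 measured on each autosome, with 95% Wilson intervals (circles) and counting only tiles that hold under 5 of them (squares); bottom, cytosines at 80 to under 95% per 1000 measured. Chromosome 15 is highest at 2.42 and falls to 1.66 without the dense tiles, level with chromosome 5.

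Almost fully methylated cytosines lay mostly inside genes and away from their ends. Further than 1000 bp inside a gene lay 2564 (67.8%), within 1000 bp of a gene end 329 (8.71%, Wilson 95% interval 7.85 to 9.65), and outside genes 886 (23.4%). Among all autosomal cytosines the shares were 43.5%, 31.3% and 25.2%. Among those at 80 to under 95% they were 67.7%, 9.66% and 22.7%, close to the shares at 95% or more. The annotation used gives gene bounds, so exons and introns were not separated here.

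Few lay near gene starts, as for other highly methylated cytosines. Within 1000 bp of a start lay 69 (1.83%), against 1.70% of the cytosines at 80 to under 95% and 23.4% of all measured. Near a 3′ end and no start lay 169 (4.47%), against 4.64% and 3.10%. Per 1000 cytosines at 80% or more, 17.2 near starts, 15.4 near 3′ ends and 16.0 elsewhere were at 95% or more. In promoter windows the value was 5.01, from 3 cytosines. The median distance to the nearest start was 24347 bp, against 23012 bp at 80 to under 95% and 13574 bp for all cytosines. Protein-coding genes held 2678 (70.9%), against 70.9% at 80 to under 95% and 60.4% of all measured cytosines. Long noncoding RNA genes held 239 (6.32%), against 5.74% and 9.90%. In tRNA and miRNA genes 819 and 646 cytosines were measured and 0 were at 95% or more, too few to tell from the autosomal 1.61 per 1000.

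Along protein-coding genes the share rose towards the 3′ end. Of 2132 cytosines in exactly 1 such gene of known strand, 5 equal parts of the gene, in order from its start, held 7.97%, 14.4%, 18.5%, 25.2% and 33.9%. At 80 to under 95% the parts held 9.73%, 15.3%, 19.3%, 23.3% and 32.4%, a similar order. All measured cytosines were instead concentrated in the first part, with 42.4%, against 17.1% in the last.

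The share by tile depended on what it was taken over. Per 1000 of all measured cytosines it was 0.801 in 1 kb tiles of 1 to 4 measured cytosines, highest at 2.28 in tiles of 10 to 19, and lowest at 0.468 in tiles of 60 or more. Among highly methylated cytosines it rose with the number measured. Per 1000 cytosines at 80% or more, 8.45 were at 95% or more in tiles of 1 to 4, 16.2 in tiles of 10 to 19, 27.2 in tiles of 40 to 59 and 58.3 in tiles of 60 or more. The tile of an almost fully methylated cytosine had a median of 16 measured cytosines, against 13 at 80 to under 95% and 15 over all. Tiles of 60 or more are mostly unmethylated: of 2951, 25 had a mean level of 80% or more, and 24 held an almost fully methylated cytosine. Tiles of Plec held 27, 11 and 2 of the 107 such cytosines there. Besides Plec and Srsf4, such tiles lay in Foxp4, Bend3, Mex3d, Map3k1, Scaf1 and Zbtb39, which were named after their values were seen.

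Close CpGs were frequent too. Another measured CpG began 2 bp away for 16.9% of the almost fully methylated cytosines (640), against 5.91% at 80 to under 95%, 3.07% at 50 to under 80% and 18.4% under 20%. Cytosines at 99% or more again differed, with 7.64%, against 17.3% at 95 to under 99%.

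**Figure D5:**
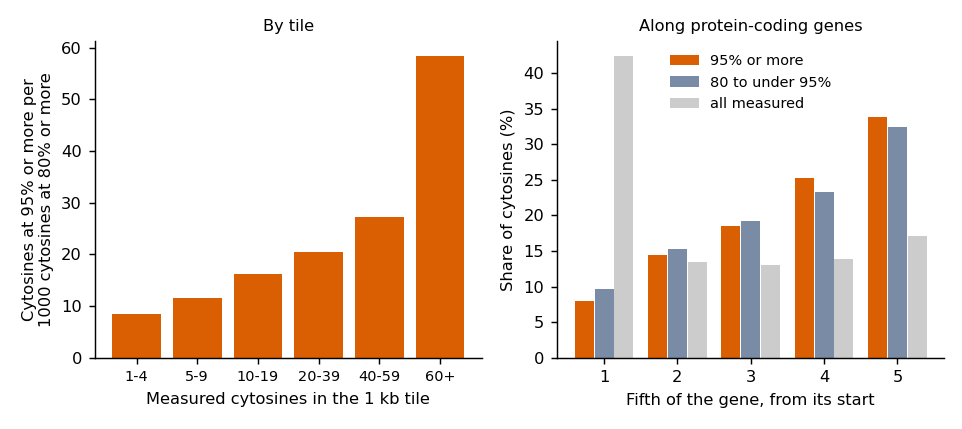
Left, almost fully methylated cytosines per 1000 cytosines at 80% or more, by the number of cytosines measured in the 1 kb tile; right, the share (%) of cytosines in each of 5 equal parts of a protein-coding gene from its start, for those at 95% or more (orange), at 80 to under 95% (blue) and all measured (grey). The left bars go from 8.45 to 58.3, and the orange bars on the right from 7.97% to 33.9%.

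Of 257476 tiles, 2327 (0.904%) held any almost fully methylated cytosine, and 1664 of these held exactly 1, which is 44.0% of the cytosines. At the other end 101 tiles held 5 or more, together 723 cytosines (19.1%), and 13 tiles held 10 or more. In runs with gaps of at most 50 bp, 1907 (50.5%) were single, and 70 runs held 5 or more.

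The tile with the most lay in Plec (chr15:76175000-76175999), the gene of the cytoskeletal linker plectin, with 27 of 66 cytosines at 95% or more. Over the libraries those 27 averaged 94.5%, 96.6% and 97.8% as lowest, median and highest. A tile in AI506816 and the overlapping Gm42226 (chr5:23704000-23704999) followed with 22 of 40, with 94.7%, 96.6% and 98.99%. Slc20a2, which encodes a sodium-dependent phosphate transporter, had 16 of 22 (chr8:22552000-22552999), with 92.6%, 97.2% and 99.3%. In all 3 tiles the lowest library was under 95% and the median library above it.

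Rbm27, an RNA-binding protein gene, had 15 of 24 in 1 tile of chromosome 18, and Srrm2, a spliceosome-associated protein gene, had 14 of 46 on chromosome 17. Rapgef6, an exchange factor for Rap GTPases, had 13 of 26 on chromosome 11, and a second tile of AI506816 had 12 of 26. A tile shared by Gm12992 and the splicing factor gene Srsf4 had 11 of 70, LOC108167320 had 11 of 25 and 6030458C11Rik had 11 of 16. A second Plec tile also held 11, of 61. The runs were compact: 15 in 92 bp in Slc20a2, 15 in 22 bp in Rbm27, 14 in 170 bp in the magnesium transporter gene Nipa2, and 11 in 11 bp in 6030458C11Rik. Cytosines this close share reads and are not independent measurements.

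By gene, 1426 of 28005 measured genes (5.09%) held at least 1, 897 of them exactly 1, and 31 held 10 or more. Among 11081 genes with 50 or more measured cytosines, 9904 (89.4%) held none. The 10 genes with the most together held 6.48% of all 3779, with Rere, at 15 level with Fto and Rbm27, left out by alphabetical order.

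AI506816 led with 65 of 236 cytosines (27.5%), whose mean over the libraries was 95.3%, 96.7% and 97.97% as lowest, median and highest. They were spread over 10 tiles, and 44 of them lay in Gm42226, which lies inside AI506816. Plec had 52 of 613, with 94.9%, 96.1% and 97.51%, in 9 tiles. Slc20a2 had 25 of 404, with 93.5%, 96.99% and 98.5%, and Gcn1, an activator of the Gcn2 kinase, had 22 of 354, with 94.6%, 95.9% and 98.2%. Genes near the top thus differed in whether their cytosines were spread or packed.

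Srrm2 had 18 of 190 cytosines, Gng12 17 of 187, the atypical cadherin gene Fat1 16 of 589, the RNA demethylase gene Fto 15 of 667 and Rbm27 15 of 102. In Fto they spanned 226306 bp over 7 tiles, and in Rbm27 they spanned 22 bp in 1 tile. The rest of Rbm27 was mostly unmethylated, with 76 of its 102 cytosines under 20%. Nipa2 was alike, with 48 of 70 under 20% and 14 (20%) at 95% or more.

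By share among genes with 50 or more cytosines, Gm42226 led with 39.6%, followed by AI506816 and Nipa2. Gm36816, which overlaps Gng12, had 15.4%, the splicing regulator gene Hnrnpm 15.2%, Rbm27 14.7%, Gm30470 14.3%, the ubiquitin ligase gene Herc4 14.04%, Mup-ps15 13.8% and Zfp933 13.5%. In Hnrnpm the 10 cytosines lay at the median 90.7% of the way along the gene, and in Herc4 8 lay within 12 bp. Mup-ps15 belongs to a cluster of near-identical copies, so its values are uncertain.

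Of 29155 gene-end windows of 1000 bp to each side, 255 (0.875%) held an almost fully methylated cytosine: 31 of 13390 at starts (0.232%), 119 of 5529 at 3′ ends (2.15%) and 105 of 10236 at ends of unknown strand (1.03%). Windows at starts are mostly unmethylated, and the shares among cytosines at 80% or more, given above, do not follow this order. The highest shares were in LOC115488798 with 3 of 6, LOC108167320 with 12 of 26 and the start of Gm42226 with 7 of 20. Eml4, of the microtubule-associated EMAP family, had 3 of 9 at its 3′ end beside LOC115488798. Gabpb1, a subunit of the GA-binding protein, had 5 of 16 at its 3′ end, and Gm36816 had 12 of 44 at its start. Gsr, the glutathione reductase gene, had 3 of 10 at an end whose side is not known. The 3′ end of Gm42226 had 9 of 36, and the pseudogenes Gm18672 and Gm6254 had 3 of 12 each.

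Among lists of genes with known roles, counted with 1000 bp around each gene, 4 of 17 genes of the methylation machinery held almost fully methylated cytosines, against 1519 of 31200 autosomal genes (4.87%). Dnmt3a held 2, the opposite strands of 1 CpG, with libraries at 93.0%, 95.9% and 100% as lowest, median and highest. Tet3 held 2, with 90.4%, 98.3% and 100%, and Dnmt1 and Uhrf1 held 1 each. All 6 lay more than 10000 bp from the nearest start. The shares of genes rest on unlike numbers of measured cytosines, 2288 in the 17 genes and 2117672 in the 31200. Per 1000 measured cytosines the list held 2.62, from 6 cytosines, against 1.49 for all genes.

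Of 31 imprinted genes 3 (9.68%) held any: Peg13 held 1, and Igf2r and its antisense gene Airn shared 1. Per 1000 measured cytosines this list held 0.803, with the shared cytosine counted in both genes, against 1.49 for all genes. Of 24 germline genes 1 (4.17%) held any, a share near that of all genes. It was Dazl, an RNA-binding protein gene of germ cells, with 2 cytosines outside the gene, the nearer 531 bp from its start, and libraries at 88.9%, 97.2% and 100%. The count was 0 in 38 Hox genes with 4522 measured cytosines, 19 gastrulation genes with 2139, 14 pluripotency genes with 1739 and 13 housekeeping genes with 1094. At the 4.87% of all genes, lists of so few genes would hold few or none. Per 1000 measured cytosines the lists with a count of 0 stood at 0, against 1.49 for all genes. The methylation level of these lists as a whole was not compared, and no difference was tested.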

How the data were processed

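DNA methylation was measured in 10 libraries from whole embryos. The deposited table holds counts of reads per CpG cytosine: coverage, methylated and unmethylated reads, per the file headers, not normalized. Tools in the submitters' processing notes are Bismark, methylKit and Trim Galore, with the mm10 build and no versions. All 30 per-sample columns could be tied to no sample. Coverage was at least 10 everywhere, so thinly read cytosines are missing; library coverage summed to 94583116 to 127102232. How duplicates and overlapping mates were treated was not stated.

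Levels, tiles of 1000 bp, gene ends (1000 bp) and promoter windows were computed with Python 3.11.15, numpy 2.4.6, pandas 2.3.3 and scipy 1.17.1, using RefSeq genes of GRCm38.p6; counting was tested on simulated data. Of 119045 promoter CpGs checked, 119036 read CG. Named were the 10 genes with the most almost fully methylated cytosines (ties in alphabetical order), the 10 with the largest share among genes with at least 50 measured, the 10 fullest tiles, the 10 gene-end windows with the largest share among those with at least 5, up to 3 genes per list (4 for the methylation machinery, chosen after values were seen), and promoters. The cytosines and lists were chosen with earlier results of these data known. The genes drawn as maps were chosen after their values were seen: Gcn1 was drawn first and was replaced because no cytosine at its start was low. Other thresholds, coverage minimums, distances, tile sizes and sets of libraries were tried.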

Additional observations from a re-analysis of the deposited data

Results flagged for a closer look

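The sex chromosomes were outside the comparison of autosomes. Chromosome X held 133 cytosines at 95% or more among 41785 (3.18 per 1000), and chromosome Y held 14 among 3521 (3.98 per 1000), against 1.61 per 1000 on the autosomes. The mean level was 48.0% on X and 60.5% on Y, against 40.3% to 42.8% over the autosomes in single libraries. Every cytosine counted on Y had at least 10 reads in all 10 libraries, and embryo sex was not stated. No control level exists for these values, and the difference was not tested.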

How the results depend on the processing

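Of 61 recomputed values outside the choice by 9 libraries, 25 stayed within the error of the value as reported and 36 moved. Some that moved had wide intervals of their own that still held the value as reported. The count of 3779 became 482, 157 and 40846 at thresholds midway between 95% and 100%, at 99% and at 90%, 1830 and 1084 with at least 20 or 30 reads in every library, 570 with the lower Wilson bound at 95%, and 543 CpGs with strands summed. The ratio of chromosome 15 to all autosomes was 1.72 at 99%, with an interval of 0.998 to 2.90 that holds the reported 1.503. At 90% it was 1.17. The share near gene ends was 7.01% at 99%, with an interval of 3.96 to 12.1 that holds the reported 8.71%. It was 9.89% with at least 20 reads, 5.05% and 15.7% within 500 and 2000 bp, and 5.48% with protein-coding genes only. Cytosines per tile were 14, 12 and 15 at those thresholds, 14 with at least 20 reads, and 14 and 19 in tiles of 500 and 2000 bp. The level of the tile's cytosines below the threshold was 84.0%, 75.7% and 80.6% at those thresholds. It was 86.1% with at least 20 reads, and 85.5% and 84.6% in those tiles. The opposite strand had 91.6%, 80.1% and 90.4%, and 93.5% with at least 20 reads. The 10 leading genes held 1.91% at 99% and 2.05% at 90%. The level in the library left out was 96.6% at the midway threshold and 91.0% at 90%. The cause was not tested. Choosing by 9 libraries gave 3950 to 4269 cytosines, ratios of 1.36 to 1.505, 8.79% to 9.16% near ends, 16 per tile, 84.9% to 85.0% in the tile, 92.9% to 93.0% on the opposite strand, and 5.94% to 6.53% in the leading genes. Chosen after seeing the data, at least 20 reads put the opposite strand of cytosines at 99% or more at 75.4%. Its interval of 62.4 to 90.1 holds the 80.1% found without that minimum. Depth limits the set: a median of 322 reads cannot place most levels on 1 side of 95%. No paired analysis was possible because the columns could be tied to no sample and no groups were compared.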
